A study of Mus musculus with 8 samples.

Results

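The bone morphogenetic protein (BMP) and activin ligands of the mouse uterus and the proteins that restrain them are described here over the estrous cycle, as 10 genes chosen by name from the 52308 genes of a deposited count table. The 10 are the BMP ligands Bmp2, Bmp4, Bmp7 and Gdf6, the activin subunits Inhba and Inhbb, the secreted antagonists Fst, Grem1 and Nog, and the membrane antagonist Bambi. Of these, 9 passed the filter on low counts, and Grem1 did not.

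BMPs and activins are secreted dimers of the TGF-beta superfamily. BMPs signal through type I and type II receptor kinases to Smad1, Smad5 and Smad9, and activins through related receptors to Smad2 and Smad3, with Smad4 as the shared partner. Noggin (Nog) and gremlin (Grem1) bind BMPs outside the cell, follistatin (Fst) binds activins tightly and some BMPs more weakly, and Bambi is a receptor without a kinase that blocks signalling at the membrane. In the mouse uterus this family is known for its part in the receptive and decidual response to an embryo, for which Bmp2 and follistatin are both needed.

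Polyadenylated RNA of the uterus was sequenced from female mice of the outbred ICR stock, 6 to 8 weeks old, with no transgene or treatment in the labels. The 4 groups are proestrus, estrus, metestrus and diestrus, with 2 libraries each (n = 2 in every group below), and the stage of each mouse came from the cells of a stained vaginal smear. As background, estradiol peaks in proestrus and progesterone is higher in metestrus and diestrus; hormone levels were not analysed here. The labels do not say whether the libraries of a stage came from separate mice or from pools, so the p-values measure the spread between these libraries, which may be technical.

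Library totals ran from 17863546 to 21896786 counts, and 18114 genes were tested. The 2 diestrus libraries stood apart from each other: 2713 tested genes differed by more than 2-fold between them, beside 837 to 1448 in the other stages, so several results below are given without one or the other. The label of uterus was checked against 8 marker genes (Hoxa10, Hoxa11, Esr1, Pgr, Hand2, Wnt7a, Emx2 and Hoxd10), whose summed level lay between 783 and 1431 CPM in every library. CPM express gene counts relative to library size after TMM normalisation. Of 8 ovary markers, which matter here because the ovary is a strong source of activin subunits, Fshr was at 0 in every library, and Amh, Cyp19a1, Zp3 and Gdf9 stayed under 1 CPM. The other 3 were higher, with Foxl2, which the uterus also expresses, at 25.9 to 80.1 CPM. Summed markers of cervical or vaginal epithelium lay between 1.50 and 14.4 CPM, and those of fat between 0.759 and 14.8 CPM. The cervical or vaginal sum was highest in proestrus (14.36 and 13.35 CPM), beside 1.98 and 3.88 CPM in diestrus. Of these 6 markers 5 passed across the stages, beside 39.1% of all genes tested. The part of such cells in the levels below was not tested.

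Whole uterus was sequenced, so a lower level can mean fewer cells of a type or less RNA per cell, and these cannot be told apart. Levels are given in CPM for libraries 1 and 2 of each stage. Differences are log2 fold changes ± SE from an edgeR quasi-likelihood fit to all 8 libraries, with p adjusted (Benjamini-Hochberg) over all genes tested and a threshold of 0.05.

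By stage mean, the antagonists Fst and Nog were at their highest in diestrus, the activin subunits in proestrus, and Gdf6 in metestrus. The Inhba means of proestrus and estrus did not separate (17.5 and 16.5 CPM, adjusted p = 0.895). Nor did Gdf6 in metestrus pass against proestrus (0.0565). Across the 4 stages, 5 of the 9 tested genes passed (Gdf6, Inhba, Fst, Nog and Bambi), and 39.1% of all genes tested did so too. Of those 5, 3 had their highest mean in diestrus (Fst, Nog and Bambi), 1 in metestrus (Gdf6) and 1 in proestrus (Inhba). The share of all genes with each highest stage was not counted. Bmp2 (adjusted p = 0.366), Bmp4 (0.450), Bmp7 (0.0566) and Inhbb (0.0701) did not pass across the stages.

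**Figure D1:**
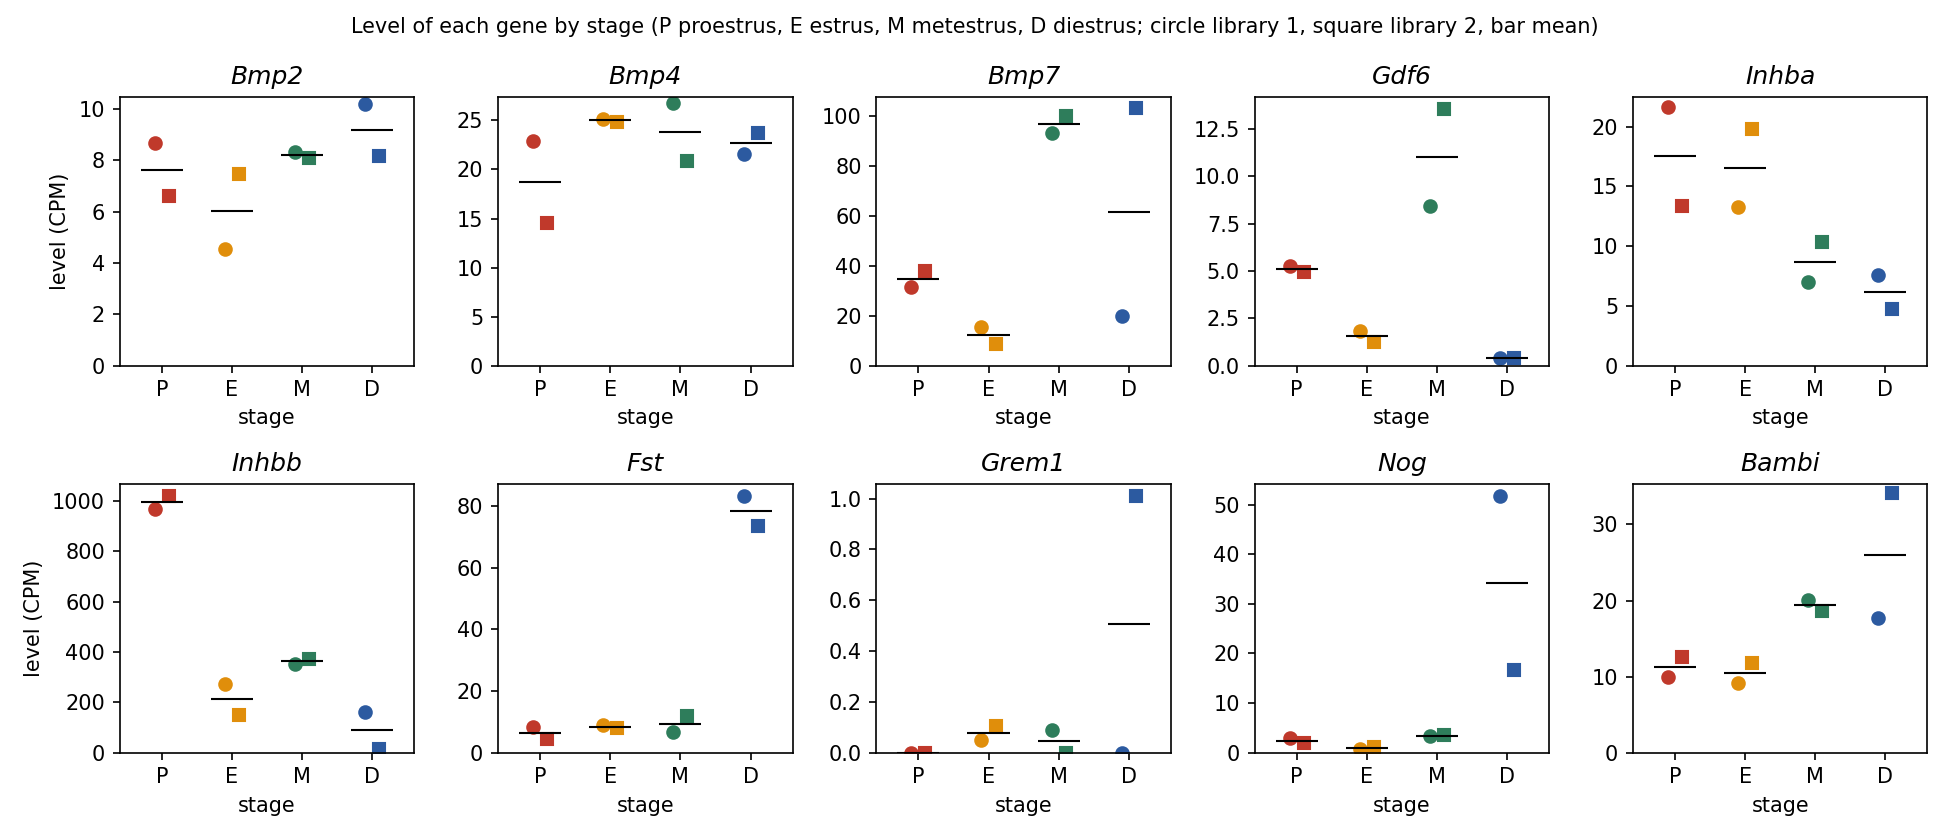
Level of each of the 10 genes in CPM (y axis, linear, starting at 0) at proestrus (P), estrus (E), metestrus (M) and diestrus (D); circles are library 1, squares library 2 and bars the mean of the stage. Fst sits at 73.5 and 83.4 CPM in diestrus and at 11.8 CPM or lower in the other 6 libraries, whereas the diestrus libraries of Bmp7, Inhbb and Nog lie far apart.

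The BMP ligands come first. Bmp2, a ligand essential to decidualization, lies on chromosome 2 at 133552159 to 133562885 of GRCm38, on the plus strand (identifier ENSMUSG00000027358). It was measured at 8.67 and 6.60 CPM at proestrus, 4.55 and 7.49 at estrus, 8.35 and 8.08 at metestrus, and 10.2 and 8.17 at diestrus. All 8 libraries lay between 4.55 and 10.2 CPM, and in none of the 6 pairs of stages did Bmp2 pass the test. Its widest difference, diestrus over estrus, was 0.61 on the log2 scale with an adjusted p of 0.177.

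Bmp4, a close relative of Bmp2, lies on chromosome 14 at 46383520 to 46390669, on the minus strand (ENSMUSG00000021835). Its levels were 22.9 and 14.6 CPM at proestrus, 25.2 and 24.9 at estrus, 26.8 and 20.9 at metestrus, and 21.6 and 23.7 at diestrus. Estrus sat above proestrus and diestrus without overlap, and all other stages overlapped; no pair passed, and the smallest adjusted p was 0.260. The opposite-strand gene Gm15217 shares 89 bases of exon with Bmp4, 3.96% of the latter's exon length, and reached at most 0.252 CPM.

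Bmp7, a ligand best known from kidney and eye development, lies on chromosome 2 at 172868012 to 172940321, on the minus strand (ENSMUSG00000008999). It was at 31.4 and 37.9 CPM in proestrus and at 15.7 and 8.78 in estrus, its lowest stage. In metestrus it was at 93.2 and 100.2 CPM. Diestrus gave 19.7 CPM in library 1 and 103 in library 2, so library 2 lay at the metestrus level and library 1 near that of estrus, 5.23-fold apart.

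From estrus to metestrus Bmp7 rose 7.91-fold, a log2 change of 2.98 ± 0.72 with an adjusted p of 0.0205. That call ended without any one of the 4 libraries of the pair (adjusted p = 0.0695 to 0.114). Across the stages Bmp7 did not pass in the filtered edgeR fit of all 8 libraries, nor in 10 of 14 alternatives, limma-voom among them. The 4 in which it passed were DESeq2 (0.000138), edgeR with no filter on low counts (0.00625) and the fits without either diestrus library.

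Gdf6, a BMP-family ligand best known from joints and skeleton, lies on chromosome 4 at 9844372 to 9862345, on the plus strand (ENSMUSG00000051279). Its levels were 5.28 and 4.96 CPM at proestrus, 1.85 and 1.24 at estrus, 8.44 and 13.6 at metestrus, and 0.404 and 0.403 at diestrus. No stage overlapped another. The diestrus values rest on 9 and 8 counts.

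Gdf6 passed in 5 of the 6 pairs, more than any other of the 10. It fell from proestrus to estrus by 1.72 ± 0.33 on the log2 scale (adjusted p = 0.0215), rose from estrus to metestrus by 2.83 ± 0.34 (0.00278), and was lower in diestrus than in metestrus by 26.8-fold, a log2 change of -4.75 ± 0.39 (0.0226). From diestrus to proestrus it was higher by 3.64 ± 0.38 (0.00238). Only metestrus and proestrus did not separate past the threshold (adjusted p = 0.0565).

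The change of Gdf6 across the stages, from estrus to metestrus and between diestrus and proestrus passed under every alternative run. The fall from metestrus to diestrus did not pass without any one of the 6 libraries of proestrus, estrus and metestrus (adjusted p = 0.0524 to 0.125) nor in a fit of the 4 libraries of the pair (0.165), and the fall from proestrus to estrus ended without any one of the 4 libraries of its pair (0.0725 to 0.111). Diestrus below estrus (-1.92 ± 0.38, adjusted p = 0.0153) ended without estrus library 1 (0.0820), with limma-voom (0.0676) and in the fit of 4 libraries (0.0609).

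The activin subunits follow. Inhba encodes the beta-A subunit of activin A, and Inhbb the beta-B subunit of activin B; with the alpha subunit Inha they form inhibins instead. Because both genes were lower in diestrus than in proestrus, the 250 bases before the transcription start of each are shown, taken from RefSeq (GRCm38.p6). Capitals mark matches to any of 5 searched motifs on either strand: the estrogen response element GGTCANNNTGACC, its half-site GGTCA (which the full element contains), the half-site TGTTCT bound by the progesterone receptor, the GC box GGGCGG and the TATA box TATAAA.

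Inhba promoter, chr13:16011601-16011850, plus strand: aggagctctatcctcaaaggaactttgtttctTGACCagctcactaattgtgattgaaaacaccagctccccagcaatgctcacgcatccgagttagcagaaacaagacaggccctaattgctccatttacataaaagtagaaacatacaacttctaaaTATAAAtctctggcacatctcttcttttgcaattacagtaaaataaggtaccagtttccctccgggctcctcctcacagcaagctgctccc

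Inhbb promoter, chr1:119422249-119422498, minus strand: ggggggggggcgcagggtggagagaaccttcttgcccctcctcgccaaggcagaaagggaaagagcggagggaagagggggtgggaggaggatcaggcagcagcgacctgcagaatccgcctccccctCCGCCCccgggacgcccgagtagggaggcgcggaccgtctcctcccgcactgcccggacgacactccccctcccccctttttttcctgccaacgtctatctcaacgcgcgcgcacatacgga

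The Inhba window has 43.2% G and C, with 1 half-site read as TGACC at -218 to -214 from the start and 1 TATA box at -91 to -86. The Inhbb window has 68.0% G and C and 1 GC box, read as CCGCCC at -122 to -117. Among 32851 RefSeq promoters of the same 250-base length, 35.2% hold the half-site, 12.4% the TATA box, 32.7% the GC box, 16.1% TGTTCT and 0.0639% the full estrogen response element. Neither window holds the full element or TGTTCT. The matches are a description of letters, and binding was not measured.

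Inhba lies on chromosome 13 at 16011851 to 16031621, on the plus strand (ENSMUSG00000041324). It was at 21.7 and 13.4 CPM at proestrus, 13.3 and 19.8 at estrus, 7.01 and 10.3 at metestrus, and 7.60 and 4.74 at diestrus. Every proestrus and estrus library was above every metestrus and diestrus library. Proestrus and estrus overlapped, as did metestrus and diestrus.

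Inhba was 2.84-fold higher in proestrus than in diestrus (log2 1.50 ± 0.38, adjusted p = 0.0336) and 2.67-fold higher in estrus than in diestrus (diestrus minus estrus, -1.42 ± 0.38, adjusted p = 0.0381). Both calls lie near the threshold. The first ended without proestrus library 1 (0.176), estrus library 2 (0.0517), either metestrus library (0.0556) or diestrus library 2 (0.0824), and the second without either estrus library (0.0756 and 0.173), either metestrus library (0.0604 and 0.0606) or diestrus library 2 (0.104). In fits of the 4 libraries of each pair the values were 0.0923 and 0.0777. Across the stages Inhba kept its call only without diestrus library 1 among the fits that left out a library; the other 7 gave 0.0531 to 0.0982.

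Inhbb lies on chromosome 1 at 119415465 to 119422248, on the minus strand (ENSMUSG00000037035). It was at 970 and 1020 CPM in proestrus, and per kilobase of exon it was the most abundant of the 10 genes there (228 and 240 CPM per kb). The level at estrus was 274 and 151 CPM, at metestrus 351 and 374, and at diestrus 161 and 15.7. Both proestrus libraries were above all others, and the diestrus libraries differed 10.2-fold.

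Inhbb was 11.2-fold higher in proestrus than in diestrus (log2 3.49 ± 0.95, adjusted p = 0.0427). That call ended without any one of the 6 libraries of proestrus, estrus and metestrus (0.0714 to 0.132) and in a fit of the 4 libraries of the pair (0.136). From proestrus to estrus the difference was -2.23 ± 0.91 and missed the threshold (0.141). Across the stages Inhbb did not pass in the main fit, nor in 9 of 14 alternatives. The 5 in which it passed were DESeq2 (0.0236), limma-voom (0.0477), edgeR with no filter on low counts (0.00870) and the fits without either diestrus library.

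Markers of uterine epithelium also differed between stages. Of 10 epithelial markers 8 passed across the stages, beside 39.1% of all genes tested. In proestrus 5 were higher and 1 (Foxa2) lower than in diestrus, beside 12.0% and 10.4% of all genes. The summed level of the 10 markers was 4858 and 3937 CPM at proestrus, 3680 and 3108 at estrus, 1173 and 1117 at metestrus, and 8339 and 1057 at diestrus. Diestrus library 1 owes its sum to the gland proteases Prss28 (2039 CPM) and Prss29 (5509 CPM), which were at or near 0 in diestrus library 2; without them, in a list trimmed after these values were seen, its sum was 790 CPM. The sum was thus lower in metestrus than in estrus, as was the mean of Inhba, although Inhba did not pass in that pair (adjusted p = 0.0927). The mean of Inhbb was 362 ± 16 CPM (SD) in metestrus and 212 ± 87 CPM in estrus, a difference that did not pass either (0.520). The part of epithelial content in the levels of either gene was not tested. Inha, the inhibin alpha subunit, lay between 1.25 and 3.55 CPM in the 8 libraries.

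Among the secreted antagonists, Fst had the clearest stage pattern. Fst lies on chromosome 13 at 114452290 to 114458951, on the minus strand (ENSMUSG00000021765). It was at 8.46 and 4.32 CPM at proestrus, 8.95 and 7.95 at estrus, 6.61 and 11.8 at metestrus, and 83.4 and 73.5 at diestrus. The first 3 stages overlapped, and both diestrus libraries lay far above them.

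Diestrus was higher than proestrus by 12.3-fold (proestrus minus diestrus, log2 -3.62 ± 0.39, adjusted p = 0.00275), than estrus by 9.28-fold (3.21 ± 0.39, 0.00343) and than metestrus by 8.51-fold (3.09 ± 0.38, 0.0361). The first and second of these, and the test across the stages (0.00222), passed under every alternative. Diestrus against metestrus ended without any one of the 6 libraries of proestrus, estrus and metestrus (0.0718 to 0.267) and in a fit of the 4 libraries of the pair (0.203). The gene Gm47040 on the opposite strand shares 115 exon bases with Fst, 2.51% of its exon length, and had at most 2 counts in a library.

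Nog, which encodes noggin, is a gene of 1695 bases on chromosome 11 at 89300638 to 89302332, on the minus strand (ENSMUSG00000048616). It was at 2.97 and 1.89 CPM at proestrus, 0.800 and 1.08 at estrus, 3.35 and 3.51 at metestrus, and 51.7 and 16.6 at diestrus. No stage overlapped another. Diestrus was the highest stage in both of its libraries, although these differed 3.12-fold.

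In diestrus Nog was 36.1-fold higher than in estrus (log2 5.17 ± 0.62, adjusted p = 0.00346) and 14.0-fold higher than in proestrus (proestrus minus diestrus, -3.81 ± 0.57, 0.00651). Diestrus against metestrus gave a difference of 3.32 ± 0.55 and did not pass (0.0739). From estrus to metestrus Nog rose by 1.86 ± 0.59 (0.0473), a call that ended with limma-voom (0.257) and without any one of the 6 libraries of proestrus, estrus and metestrus (0.0592 to 0.192). The call against estrus and that across the stages (0.00339) passed under every alternative, and the call against proestrus under every one but the fit of its 4 libraries (0.0522).

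Grem1, the gene of gremlin, lies on chromosome 2 at 113746164 to 113758646, on the minus strand (ENSMUSG00000074934). It was barely detected: counts were 0 and 0 at proestrus, 1 and 2 at estrus, 2 and 0 at metestrus, and 0 and 20 at diestrus. Diestrus library 2 thus reached 1.01 CPM, and a count of 0 allows up to 0.128 to 0.155 CPM in these libraries (3 counts, counting error only). It was under the filter on low counts, and in the fit with no filter its adjusted p across the stages was 0.161.

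Bambi lies on chromosome 18 at 3507923 to 3516404, on the plus strand (ENSMUSG00000024232). It was at 9.95 and 12.6 CPM at proestrus, 9.20 and 11.8 at estrus, 20.1 and 18.6 at metestrus, and 17.7 and 34.1 at diestrus. Proestrus and estrus overlapped, as did metestrus and diestrus, and every library of the latter pair was above every library of the former.

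Bambi was 2.30-fold higher in diestrus than in proestrus (proestrus minus diestrus, log2 -1.20 ± 0.32, adjusted p = 0.0404) and 2.47-fold higher than in estrus (1.31 ± 0.32, 0.0303). The former ended with limma-voom (0.0641), in the fit of its 4 libraries (0.127) and without any library but diestrus library 1 (0.0681 to 0.205). The latter ended without either estrus library (0.168 and 0.0935), either metestrus library (0.0639 and 0.0635) or diestrus library 2 (0.0613), and in the fit of its 4 libraries (0.0986). Its change across the stages (0.0396) ended with limma-voom (0.0642) and without any one of the 6 libraries of proestrus, estrus and metestrus (0.0763 to 0.124).

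Fst, Nog and Bambi had their highest means in diestrus, and some stromal and endothelial markers were higher there than in proestrus. Of 8 stromal markers 3 passed as higher in diestrus than in proestrus and 0 as lower, beside 10.4% and 12.0% of all genes tested. Pdgfra, Hand2, Vcan and Postn had higher means in diestrus than in proestrus, and Dcn, Lum, Col1a1 and Col3a1 lower means. The stromal sums were 13963 and 13174 CPM in diestrus beside 15184 and 17726 CPM in proestrus. For 7 endothelial markers the counts were also 3 and 0, with 811 and 627 CPM beside 445 and 523 CPM. Between metestrus and diestrus 0 markers of either list passed. The summed smooth muscle markers overlapped between the stages, with 17626 and 6870 CPM in diestrus and 11051 and 8061 CPM in proestrus. The part of cell content in the rise of the antagonists was not tested.

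**Figure D2:**
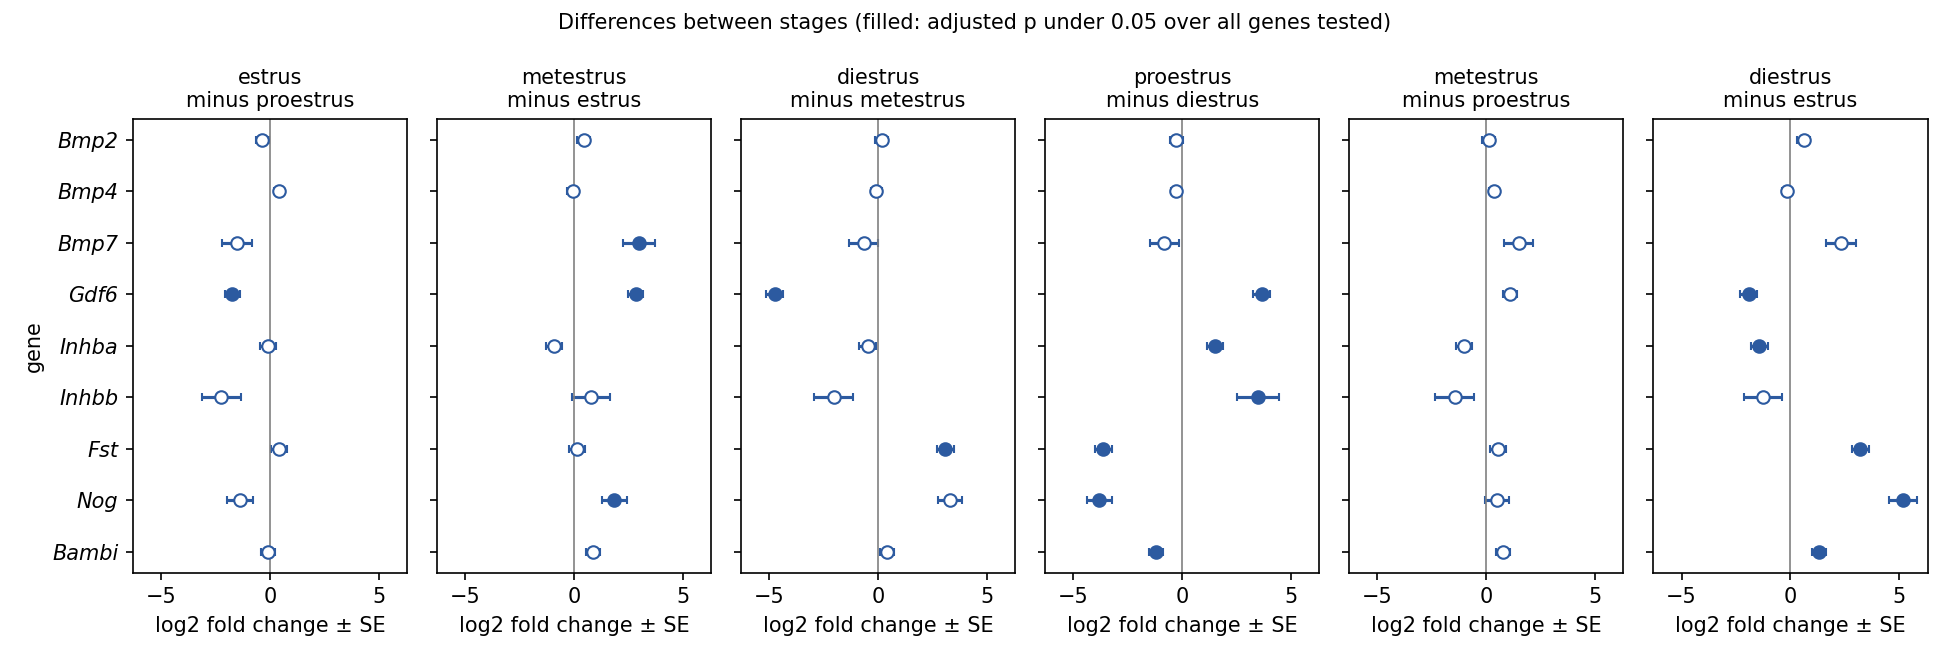
Log2 fold change ± SE (x axis) of the 9 tested genes (y axis) in the 6 pairs of stages; filled circles have an adjusted p under 0.05 over all genes tested. Fst and Nog lie on the diestrus side in all 3 panels with diestrus, and Inhba, Inhbb and Gdf6 on the other side, whether filled or not.

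Counted by pair, the genes divided as follows. From proestrus to estrus 1 of 9 fell (Gdf6); of all genes tested, 15.1% were called, 8.12% higher and 6.94% lower. From estrus to metestrus 3 rose (Bmp7, Gdf6 and Nog), where 36.2% of all genes were called, 16.7% higher and 19.5% lower, and the median over the 9 was 0.77 beside -0.05 over all genes. Between metestrus and diestrus 1 was higher in diestrus (Fst) and 1 lower (Gdf6), in a pair in which 0.508% of all genes were called, 0.282% higher and 0.226% lower. The median was -0.07 for the 9 and 0.02 for all genes.

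Between proestrus and diestrus, 3 were higher in proestrus (Gdf6, Inhba and Inhbb) and 3 lower (Fst, Nog and Bambi). Of all genes 22.4% were called in that pair, 12.0% higher and 10.4% lower, and the medians were -0.27 for the 9 and -0.01 for all. Diestrus against estrus gave 3 higher (Fst, Nog and Bambi) and 2 lower (Gdf6 and Inhba), where 23.8% of all genes were called, 9.97% higher and 13.9% lower, with medians of 0.61 and 0.02. Metestrus against proestrus gave 0 calls in edgeR, 3 at an unadjusted p under 0.05, 1 with DESeq2 and 1 with limma-voom, whereas edgeR called 16.9% of all genes, 6.68% higher and 10.3% lower. The pairs share libraries, so their counts are not independent of each other.

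Setting antagonist beside ligand needs levels per length of exon, and CPM per kilobase (kb) were therefore used, as a description with no test. The summed activin subunits were at 231 and 242 CPM per kb at proestrus, 66.4 and 38.6 at estrus, 83.7 and 89.4 at metestrus, and 39.1 and 4.44 at diestrus. Inhbb made up 83.3% to 99.1% of that sum in the 8 libraries. Fst lay between 0.941 and 2.57 CPM per kb before diestrus and at 18.2 and 16.0 in it.

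The ratio of the activin subunits to Fst was accordingly 126 and 257 at proestrus, 34.0 and 22.3 at estrus, 58.1 and 34.8 at metestrus, and 2.15 and 0.277 at diestrus. The 4 BMP ligands together stood at 21.9 and 19.2 CPM per kb at proestrus, 16.9 and 15.7 at estrus, 39.9 and 40.3 at metestrus, and 17.5 and 38.6 at diestrus. Bmp7 formed 58.2% and 61.8% of them in metestrus but 23.1% and 13.9% in estrus. Their ratio to Nog lay between 12.5 and 35.8 in the first 3 stages and at 0.574 and 3.95 in diestrus. These are ratios of messenger RNA only, and protein levels were not measured. They also leave out other ligands and antagonists of the pathway. Fstl3, which also binds activin, averaged 3.47 CPM per kb at proestrus and 6.28 at metestrus, beside 1.39 and 2.01 for Fst. Gdf7 averaged 37.5 at metestrus and 40.2 at diestrus, and the BMP antagonist Nbl1 124 to 407 over the stages.

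**Figure D3:**
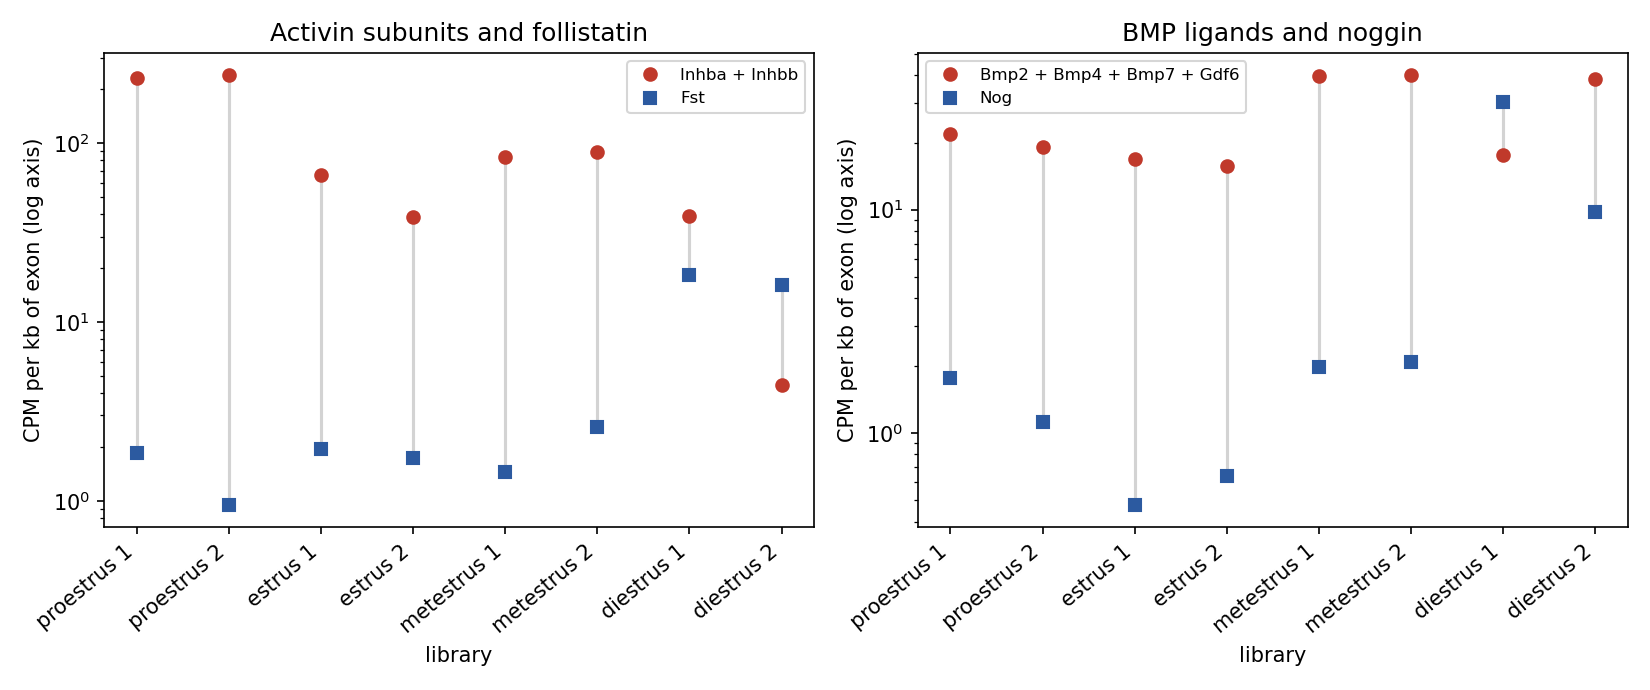
CPM per kb of exon (y axis, log scale) in each of the 8 libraries (x axis): summed activin subunits and Fst on the left, summed BMP ligands and Nog on the right, each ligand sum a red circle joined to its antagonist, a blue square. In diestrus Fst exceeds the activin sum in library 2, and Nog exceeds the BMP sum in library 1. Other ligands and antagonists of the pathway are not included.

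The rest of the pathway was read from 5 lists of genes, whose counts across the stages stand beside 39.1% of all genes tested. Counts by highest stage have no such share beside them. Of 23 other ligands 14 were tested and 7 passed across the stages, 3 of them highest in proestrus. Bmp8a was at 9.49 and 3.92 CPM in proestrus and at 1.08 CPM or lower in every other library (adjusted p = 0.00485). Bmp3, an unusual BMP that opposes the others, was at 17.7 ± 2.6 CPM (SD) in proestrus and 4.71 ± 1.26 in estrus, a fall of 1.91 ± 0.26 on the log2 scale (0.00885) that did not pass without proestrus library 2 (0.0581) or estrus library 2 (0.0578). Gdf7, a close relative of Gdf6, rose from 5.25 and 3.41 CPM in estrus to 52.3 and 54.4 in metestrus (3.62 ± 0.70, 0.0101) and was split in diestrus, at 20.3 and 94.2 CPM.

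Gdf10 rose between the same stages, from 28.2 ± 15.8 to 104 ± 52 CPM (1.88 ± 0.56, adjusted p = 0.0389). Inhbe, another inhibin beta subunit, had no count in any library but those of estrus, at 0.750 and 0.774 CPM (15 and 15 counts). Its call across the stages (adjusted p = 0.0189) ended with DESeq2 (0.145) and with the replicate number as a block (0.053). It also ended without either estrus library. The call of Gdf7 from estrus to metestrus ended without either estrus library (0.0600 and 0.0681) or metestrus library 2 (0.0504), and that of Gdf10 without any one of the 4 libraries of the pair (0.0522 to 0.181).

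Of 13 other antagonists and tolloid proteases 11 were tested and 5 passed across the stages. Fstl3, a follistatin relative that also binds activin, had another order than Fst, and was at 9.28 and 7.69 CPM at proestrus, 2.10 and 2.06 at estrus, 15.4 and 15.4 at metestrus, and 11.5 and 11.9 at diestrus. Estrus was below proestrus by 4.06-fold (log2 -2.02 ± 0.19, adjusted p = 0.00340), and metestrus above estrus by 7.35-fold (2.88 ± 0.19, 0.000863). Chrd, whose product chordin binds BMPs as noggin does, was highest in diestrus at 41.1 and 23.1 CPM beside 9.08 and 8.24 in proestrus (proestrus minus diestrus, -1.89 ± 0.29, 0.00744), a call that ended without proestrus library 1 (0.0525) and in the fit of 4 libraries (0.0513).

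Nbl1, another secreted BMP antagonist, peaked in estrus at 734 and 922 CPM beside 248 and 257 in proestrus (1.71 ± 0.19, adjusted p = 0.00532). Chrdl2 was highest in proestrus, at 132 and 95.5 CPM. The proteases and modulators Bmp1, Fstl1 and Twsg1 did not pass across the stages (adjusted p = 0.0878, 0.130 and 0.216).

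Of 15 receptors and coreceptors 13 were tested and 5 passed, a share close to the 39.1% of all genes. Bmpr1b, a type I BMP receptor, was lowest in proestrus at 0.820 and 0.893 CPM and highest in diestrus at 8.46 and 7.26 (proestrus minus diestrus, -3.19 ± 0.39, adjusted p = 0.00377). Acvr1b, the main type I receptor of activin, was at 157 and 109 CPM in proestrus and 64.8 and 37.6 in diestrus (1.37 ± 0.30, 0.0207), a call that ended without proestrus library 1 (0.118) and in the fit of 4 libraries (0.0883). The main type I and type II BMP receptors Bmpr1a and Bmpr2 did not pass (0.113 and 0.319), with stage means of 142 to 185 and 85.6 to 110 CPM.

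Of 13 Smads and their regulators 6 passed across the stages, and each of the 6 had its highest mean in proestrus or estrus. How often this holds among all genes was not counted. Skil and Pmepa1, both targets and brakes of activin and TGF-beta signalling, were lower in diestrus than in proestrus. Skil was at 107 and 105 CPM in proestrus and 32.6 and 39.7 in diestrus (1.56 ± 0.12, adjusted p = 0.00126), and Pmepa1 at 282 and 292 CPM in proestrus and 58.7 and 44.9 in diestrus (2.47 ± 0.28, 0.00313). The inhibitory Smad7 followed, from 30.1 ± 1.7 to 16.1 ± 2.8 CPM (0.90 ± 0.15, 0.00952), which ended without proestrus library 1 (0.0710) and in the fit of 4 libraries (0.0702). Of the signalling Smads, Smad3 (0.0381) and Smad9 (0.0170) passed across the stages, both highest in estrus, and Smad1, Smad2, Smad4 and Smad5 did not (0.135 to 0.563). Smad3 rose from proestrus to estrus by 0.73 ± 0.17 (0.0350), and Smad9, chosen for naming after its values were seen, by 2.52 ± 0.46 (0.0179), from 0.769 and 0.794 CPM to 4.65 and 4.39. Both Smad3 calls ended without any one of the 6 libraries of proestrus, estrus and metestrus. The Smad3 call across the stages also ended with the replicate number as a block (0.054). Smad9 was part of the alternative fits, but its own calls were not read from them.

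Of 12 BMP target genes 11 were tested and 6 passed, and they did not share a stage. Id1, a direct BMP target, fell from 83.1 and 86.7 CPM in proestrus to 35.2 and 34.0 in estrus (-1.29 ± 0.32, adjusted p = 0.0415) and rose to 64.6 and 76.3 in metestrus (1.03 ± 0.32, 0.0446). Both calls of Id1 ended without any one of the 6 libraries of proestrus, estrus and metestrus (0.0672 to 0.182). Id3 went the other way, from 25.84 and 40.55 CPM in proestrus to 89.69 and 111.7 in estrus. It passed in that pair but not across the stages. The Id3 call also ended without any one of the 6 libraries of proestrus, estrus and metestrus. In that pair 3 targets were called higher in estrus (Id3, Atoh8 and Runx2) and 1 lower (Id1). Id2 and Id4 had higher means in estrus than in proestrus, without passing. Atoh8 peaked in estrus at 24.0 and 24.7 CPM beside 7.69 and 6.25 in proestrus (1.80 ± 0.21, 0.00595). Dlx5 fell from 145 and 129 CPM in proestrus to 37.4 and 49.1 in diestrus (1.66 ± 0.17, 0.00238).

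Msx1, a homeobox gene needed for uterine receptivity, was split in diestrus in the manner of Bmp7 and Gdf7, at 75.7 CPM in library 1 and 338 in library 2. Its metestrus libraries were at 222 and 197 CPM and its proestrus libraries at 50.9 and 44.3. The difference between proestrus and diestrus passed at -2.12 ± 0.61 (adjusted p = 0.0490). That call ended with limma-voom (0.0947), with the replicate number as a block (0.0743) and in the fit of 4 libraries (0.152). It also ended without any one of the 6 libraries of proestrus, estrus and metestrus.

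**Figure D4:**
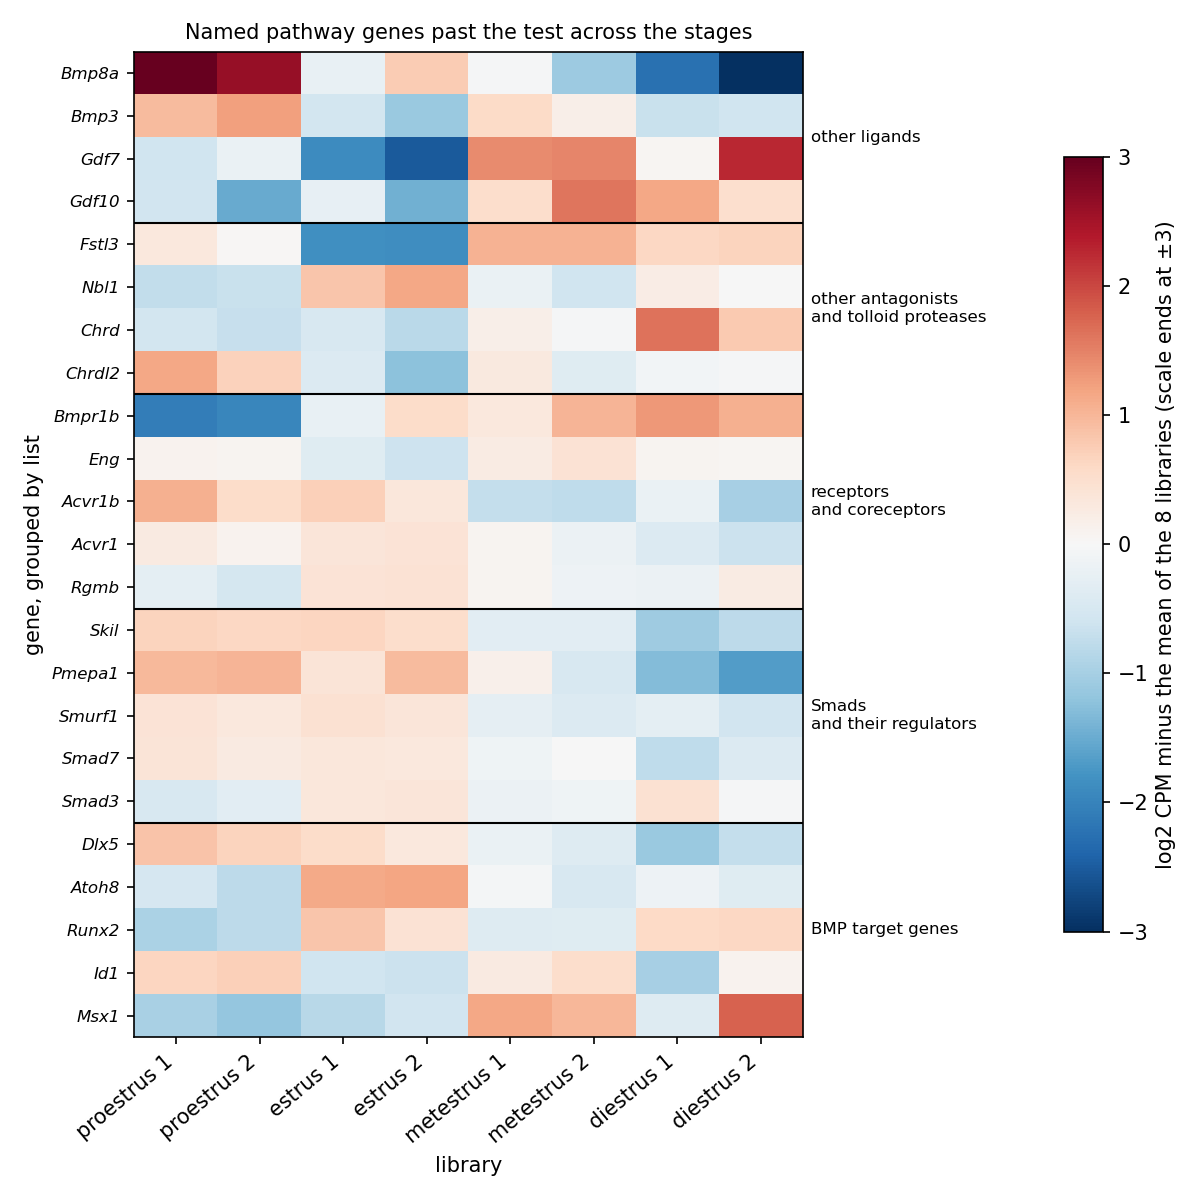
Log2 CPM minus the mean of the 8 libraries (colour, ending at ±3) for 23 pathway genes chosen by the naming rule and past the test across the stages with no library at 0 (rows, by list) in each library (columns). Skil, Pmepa1 and Dlx5 run from above their mean in proestrus to below it in diestrus, and Gdf7 and Msx1 are lower in diestrus library 1 than in diestrus library 2.

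The genes whose log2 CPM most resembled each of the 5 genes past the test across the stages were sought among 11659 protein-coding genes, by Pearson r over the 8 libraries, which share their stages and depths. For Fst these were Aff1 (r = 0.972) and Usp54 (0.962), with Aff1 at 157 and 174 CPM in diestrus and 77.5 to 96.5 CPM elsewhere. For Nog they were Fkbp5 (0.985), a gene well known to respond to glucocorticoids and progesterone, and Pde1a (0.972); Fkbp5 was at 98.0 and 53.8 CPM in diestrus and 14.4 to 27.2 CPM elsewhere. Bambi was nearest to Slain1 (0.984) and Pkdcc (0.979), Gdf6 to Lpl (0.961) and Eif3d (0.958), and Inhba to Wdfy1 (0.985) and Arfgef1 (0.972). With so many genes compared over so few libraries, high values of r arise readily, and they are given as a description.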

How the data were processed

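Raw counts of reads per gene, whole numbers with no normalisation, were deposited by the authors; STAR, featureCounts of Subread and the build GRCm38 (mm10) are named per the submitters' processing notes. No source used here gives their versions, the strand setting or the annotation. Symbols and positions came from GENCODE M21, and 250 identifiers were not found there. edgeR 4.0.16 (R 4.3.3) was run on the counts with its default filter by stage, TMM scaling (factors 0.8975 to 1.111), 1 coefficient per stage, 4 residual degrees of freedom, and Benjamini-Hochberg adjustment over 18114 genes. The 3 differences between stages were tested together, then each pair. The SE is the log2 fold change divided by the square root of F. Log2 CPM used a prior count of 2. The code was tested on simulated data.

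All 10 genes are named, and from each pathway list up to 4 tested genes with the smallest p, plus those whose mean reached 50 CPM in any stage; for likeness, the 2 protein-coding genes (mean of 5 CPM or more) with the highest r. A gene that the rule takes is not reported here. The 10 genes and all lists were chosen with earlier results of these data known. RefSeq promoters were matched for 4 of the 10 (Bmp4, Inhba, Inhbb and Grem1). Alternatives were DESeq2 1.42.0 size factors in edgeR, DESeq2, limma-voom (limma 3.58.1), no filter, 1 CPM in 2 libraries, the replicate number as a block, only the 4 libraries of a pair, and each library left out.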

Additional observations from a re-analysis of the deposited data

How the results depend on the processing

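Of 22 calls of the 10 genes, 8 passed under every alternative run. The test across the stages has no direction, and of the 17 calls by pair 0 changed direction. Among the 115 results of the pathway genes that the naming rule takes, 0 of those by pair changed direction. Fits without a library have fewer degrees of freedom, and the cause of each lost call was not tested. With each library left out, the count across the stages ranged from 3 to 8 (all libraries: 5), for estrus minus proestrus from 0 to 4 (1), metestrus minus estrus 1 to 5 (3), diestrus minus metestrus 0 to 4 (2), proestrus minus diestrus 3 to 8 (6), metestrus minus proestrus 0 to 4 (0) and diestrus minus estrus 2 to 7 (5). The highest counts across the stages, and for the pairs without diestrus, came from leaving out a diestrus library. The same ranges were 2 to 8 for other ligands (7), 4 to 7 for other antagonists and tolloid proteases (5), 2 to 11 for receptors (5), 3 to 7 for Smads (6) and 3 to 10 for BMP targets (6).

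Fitted on the 4 libraries of each pair alone, the counts for estrus minus proestrus, metestrus minus estrus, diestrus minus metestrus, proestrus minus diestrus, metestrus minus proestrus and diestrus minus estrus were 3, 5, 0, 2, 4 and 2. DESeq2 and limma-voom each called 1 in metestrus minus proestrus. DESeq2 called 8 other antagonists and tolloid proteases and 9 receptors, and 8 receptors passed with no filter.

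Libraries of different stages share only a replicate number: deviations of same-numbered libraries correlated at -0.0926 to 0.145 over 18114 genes. With the replicate block, 4 of the 10 genes passed across the stages and 1 in diestrus minus metestrus (Gdf6 kept, Fst lost at 0.0653); Inhba lost its calls across the stages (0.0672), in proestrus minus diestrus (0.0510) and in diestrus minus estrus (0.0561). Grem1, with 25 counts in all, was under the filter on low counts.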
